A study of Homo sapiens with 6 samples.

Results

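WNT proteins are secreted, lipid-modified signals that bind Frizzled receptors on the cell surface. In the canonical branch, this stops the destruction complex from degrading β-catenin, which then enters the nucleus and switches on target genes with TCF/LEF factors. In other branches, WNT signals steer cell polarity and movement without β-catenin. The Dickkopf (DKK) and secreted Frizzled-related (SFRP) proteins act outside the cell and hold these signals in check. In the lung, the pathway takes part in airway and alveolar development, repair and fibrosis. The genes examined here comprised 6 WNT ligands (WNT5A, WNT5B, WNT7A, WNT7B, WNT9A and WNT11), 3 secreted antagonists (DKK1, DKK3 and SFRP1) and AXIN2, a component of the destruction complex that is itself a widely used β-catenin target. They were taken by gene symbol, and all 10 were found as 1 entry each among the 25737 entries of every library.

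Libraries were available from 2 established human lines, the lung carcinoma line A549 and the immortalized bronchial epithelial line BEAS-2B, both labelled wild type. Besides an untreated culture, each line had cultures given TGF-β1 at 1 ng/mL and at 5 ng/mL, with exposure lasting 48 h. The labels give a medium with less serum for the treatment than for growth and do not state that of the untreated cells, while the methods of the study name the growth medium only. TGF-β1 is known for turning epithelial cells mesenchymal and matrix-producing. Each of the 6 conditions had 1 library of reads from mRNA 3′ ends, so no difference could be set against the spread between cultures and no p-value is given. In cultures measured in bulk, fewer cells that express a gene and less RNA per cell cannot be told apart.

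Total counts per library ran from 4120624 to 7841350. Normalized counts are counts brought to the mean library size with TMM factors (trimmed mean of M-values). The normalized data (ND) value takes log2 after adding 1 to them. Calls of a change needed a fold change (FC) of 2 or more, up or down, and an ND value of 7, or 127 normalized counts, in at least 1 library of the pair. Ranges after a value are exact 95% counting intervals, which cover counting error and not the spread between cultures. The reads carry no molecular identifiers, so copies of 1 molecule cannot be told apart and the intervals may be too narrow. A count of 0 allows up to 3 counts, or between 0.383 and 0.728 CPM (counts scaled to a fixed library total). The TGF-β1 response genes SMAD7, SKIL, PMEPA1 and TGFBI, read as a check of the treatment, were higher in all treated libraries, by 1.66-fold (SKIL, A549, 1 ng/mL) to 21.8-fold (PMEPA1, BEAS-2B, 5 ng/mL).

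By the sum of 5 epithelial markers, the epithelial label fitted A549 cells better than BEAS-2B cells, although KRT19 did not separate the lines. The 5 epithelial markers summed to 5172, 2076 and 1890 CPM in A549 cells at 0, 1 and 5 ng/mL, against between 201 and 432 CPM in BEAS-2B cells. CDH1, the adhesion protein E-cadherin, had 640, 30 and 8 counts in the A549 libraries. These markers were lower in the same A549 libraries as DKK1, AXIN2 and the falling R-spondin axis genes, and their part in those values was not tested. EPCAM had 0 counts and CDH1 at most 2 counts in the BEAS-2B libraries. KRT8 and KRT18 supplied most of the sum in both lines. KRT19 had 41, 22 and 9 counts in A549 cells and 46, 5 and 19 counts in BEAS-2B cells. The 5 fibroblast markers summed to between 301 and 382 CPM in BEAS-2B cells, mostly from THY1 and otherwise from PDGFRB. In these libraries, PDGFRA had 0 counts, LUM at most 2 and DCN at most 4. In A549 cells, the 5 fibroblast markers summed to 3.38, 16.3 and 4.92 CPM at 0, 1 and 5 ng/mL, and DCN held 2, 53 and 6 counts. Endothelial markers stayed below 1 CPM in every library, with CDH5 and VWF at 0. Alveolar type II, basal, ciliated and club markers stayed below 2 CPM, with SFTPA1, SFTPC, KRT14 and SCGB1A1 at 0 in all libraries. Blood cell markers summed to at most 12.3 CPM, nearly all from CD68, with CD3E at 0.

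Of the 10 genes, 7 were measurable, that is, reached 10 counts somewhere among the libraries. WNT7A, WNT9A and WNT11 had at most 2 counts in any library. WNT9A had 0 counts in all 6 libraries, and WNT7A had 1 count, in the A549 library at 1 ng/mL. WNT11 had 2 counts in untreated A549 cells and 1 count at 1 ng/mL. These ligands were at or under the level that a count of 0 allows, so no fold is given for them.

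At 5 ng/mL in A549 cells, WNT5B and SFRP1 were called higher and DKK1 was called lower. Over all entries that reached the ND minimum in this comparison, 33.3% were called, 16.1% higher and 17.1% lower. In BEAS-2B cells at the same dose, WNT5A and WNT5B were called higher and 0 of the 10 genes were called lower, with 19% of all entries called, 7.33% higher and 11.6% lower. At 1 ng/mL in A549 cells, SFRP1 was called higher and DKK1 lower, beside 23.5% of entries, 10.9% higher and 12.6% lower. At 1 ng/mL in BEAS-2B cells, WNT5A and WNT5B were called higher and SFRP1 lower, beside 14.8% of entries, 5.66% higher and 9.13% lower. Both doses of a line were compared with the same untreated library, so they are not independent of each other.

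**Figure D1:**
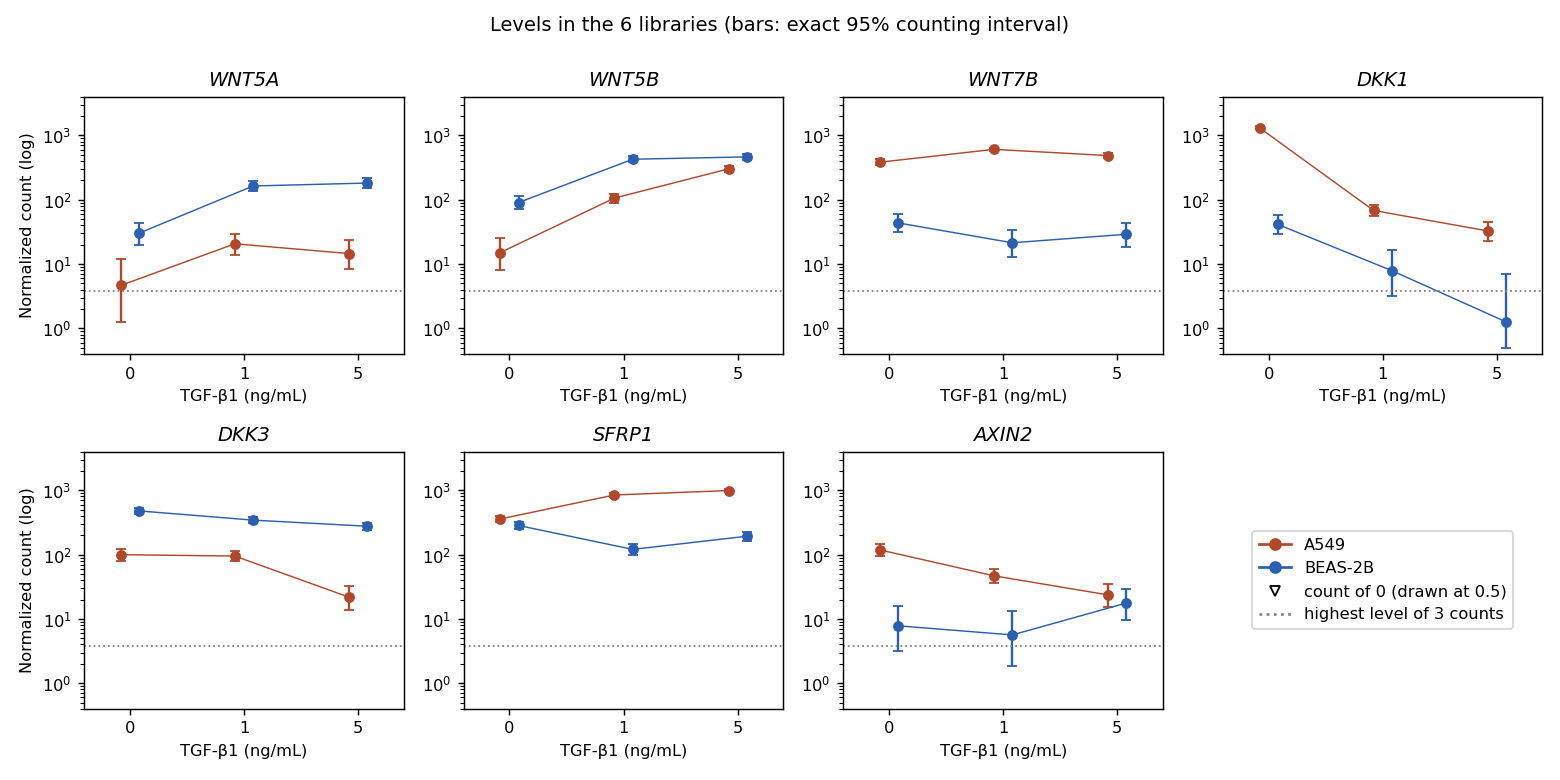
Normalized counts (log axis) of the 7 measurable genes against TGF-β1 dose (ng/mL) in A549 (red) and BEAS-2B (blue) cells, 1 library per point, with exact 95% counting intervals drawn no lower than 0.5. DKK1 is lower and WNT5A and WNT5B are higher in every treated library than in the control of the same line, and SFRP1 parts between the lines.

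DKK1 encodes a secreted inhibitor that binds the co-receptors LRP5 and LRP6 and blocks canonical WNT signaling. It had the widest range of the 10 genes over the libraries. Untreated A549 cells held 1130 counts of DKK1, against 99 at 1 ng/mL and 36 at 5 ng/mL, or 1309 (1234 to 1388), 68.0 (55.3 to 82.8) and 32.7 (22.9 to 45.2) normalized counts. It was lower in both treated libraries, and the intervals of all 3 libraries lay apart. The fall was 19.2-fold (15.7 to 23.9) at 1 ng/mL and 40.1-fold (28.8 to 57.5) at 5 ng/mL. From 1 to 5 ng/mL, DKK1 was 2.08-fold lower (1.41 to 3.14), which was short of a call because neither library reached the ND minimum.

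DKK1 started from a lower level in BEAS-2B cells, with 37 counts untreated, 7 at 1 ng/mL and 1 at 5 ng/mL. These were 41.3 (29.1 to 56.9), 7.88 (3.17 to 16.2) and 1.26 (0.0319 to 7.02) normalized counts. It was again highest without TGF-β1, although at these counts it could not be called. The ratio was 5.24-fold lower (2.31 to 13.9) at 1 ng/mL and 32.8-fold lower (5.53 to 1329) at 5 ng/mL. The untreated level in A549 cells was 31.7-fold (22.9 to 45.3) that in BEAS-2B cells. Of the 4 genes that reached the ND minimum in that comparison, DKK1 and WNT7B were called higher and DKK3 lower, beside 37% of all entries. The ratio in A549 cells was 3.67-fold lower (1.35 to 8.63) than the ratio in BEAS-2B cells at 1 ng/mL. At 5 ng/mL, the quotient was 1.22 (0.0294 to 7.70), so the single count in BEAS-2B cells does not settle whether the lines differ at this dose.

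Since DKK1 is known to be induced by β-catenin as well as to inhibit its upstream signal, the reference promoters were searched for the TCF/LEF core. The RefSeq promoter table (GRCh38.p14), with windows from 250 bases before to 50 bases after a gene start, held 7 windows for 5 of the 10 genes, namely WNT5A, WNT5B, WNT7A, WNT9A and DKK1. On both strands, the letters ATCAAAG were found in 0 of the 7 windows and TTCAAAG only in the window of DKK1. Over 35116 promoter windows, 2.62% held the first form and 4.43% the second. TGANTCA (AP-1) and CAGACA (SMAD), present in 7.71% and 16.9% of all windows, were found in 0 of the 7 windows. The DKK1 match is shown because this gene changed most. The core begins 95 bases before the start and stands in capitals, in reverse complement, within the window chr10:52314175-52314203 on the plus strand. It is a match of letters without a measurement of binding.
DKK1: ccctcccagcgCTTTGAAatcccatcccg

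DKK3 is a divergent Dickkopf that does not act on canonical signaling in the manner of DKK1. In A549 cells, it had 86, 138 and 24 counts, or 99.6 (79.7 to 123), 94.8 (79.7 to 112) and 21.8 (13.95 to 32.4) normalized counts. The libraries at 0 and 1 ng/mL overlapped and the library at 5 ng/mL lay below both. DKK3 was 4.58-fold lower (2.88 to 7.53) at 5 ng/mL, while the ratio at 1 ng/mL was 0.952 (0.722 to 1.26). None of the A549 libraries reached the ND minimum, so it could not be called. In BEAS-2B cells, DKK3 had 428, 305 and 219 counts, or 477 (433 to 525), 343 (306 to 384) and 276 (241 to 315) normalized counts. The level was lower at each dose there, with ratios 1.39-fold lower (1.20 to 1.62) at 1 ng/mL and 1.73-fold lower (1.47 to 2.05) at 5 ng/mL, both under the FC limit. At 5 ng/mL, the ratio in A549 cells was 2.64-fold lower (1.61 to 4.47) than that in BEAS-2B cells.

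SFRP1 encodes a soluble protein with a Frizzled-like domain that binds WNT ligands. It was called in opposite directions in the lines at 1 ng/mL. In A549 cells, SFRP1 had 309, 1229 and 1091 counts, or 358 (319 to 400), 844 (798 to 893) and 990 (932 to 1050) normalized counts. The rise was 2.36-fold (2.08 to 2.68) at 1 ng/mL and 2.76-fold (2.43 to 3.15) at 5 ng/mL. In BEAS-2B cells, it had 254, 107 and 153 counts, or 283 (250 to 320), 120 (98.7 to 145) and 193 (163 to 226) normalized counts. The untreated library was highest there and the library at 1 ng/mL was lowest. The fall at 1 ng/mL was 2.35-fold (1.87 to 2.98), and the ratio at 5 ng/mL was 1.47-fold lower (1.20 to 1.81), short of the FC limit. Without TGF-β1, the lines were close, at 1.26-fold (1.07 to 1.498), and at 5 ng/mL the A549 level was 5.14-fold (4.33 to 6.12) the BEAS-2B level. The ratio in A549 cells exceeded that in BEAS-2B cells by 5.54-fold (4.26 to 7.25) at 1 ng/mL and by 4.06-fold (3.18 to 5.19) at 5 ng/mL.

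**Figure D2:**
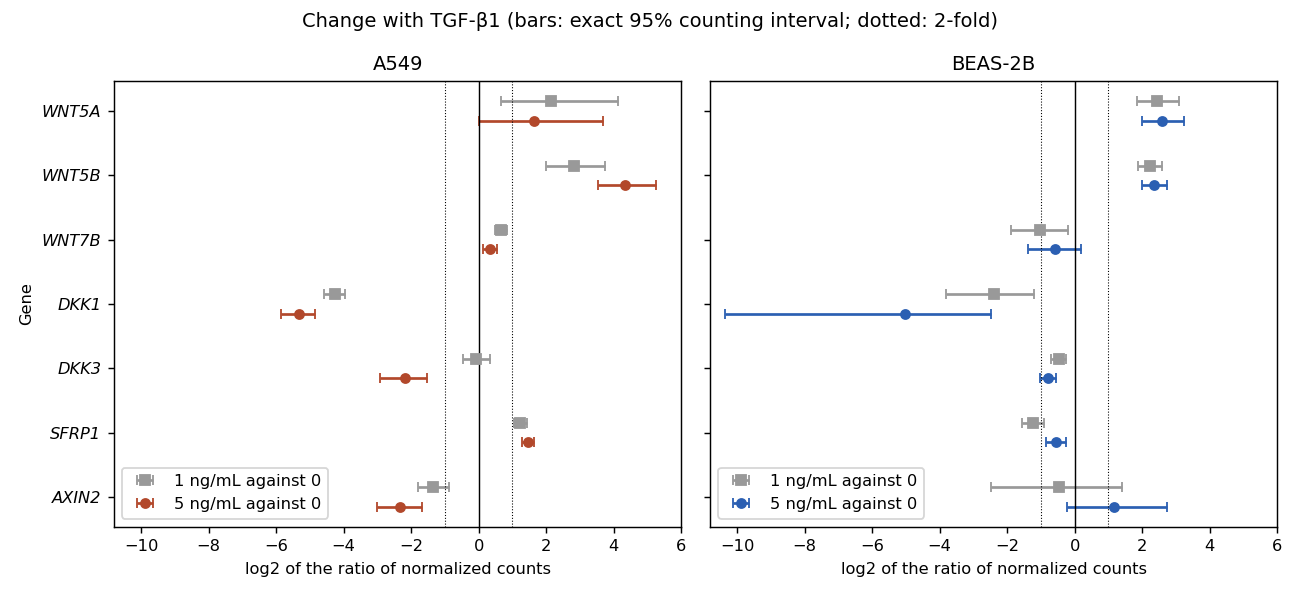
log2 ratio of normalized counts against the untreated library of the same line, at 1 ng/mL (gray squares) and 5 ng/mL (colored circles), with exact 95% counting intervals and dotted lines at 2-fold. WNT5A and WNT5B lie right of 0 and DKK1 left of 0 in both lines, SFRP1 lies on opposite sides, and AXIN2 lies clear of 0 in A549 cells alone.

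WNT5A and WNT5B encode close paralogs that mostly act through β-catenin-independent branches. WNT5B was higher in all treated libraries. In A549 cells, it had 13, 154 and 332 counts, or 15.1 (8.02 to 25.8), 106 (89.8 to 124) and 301 (270 to 335) normalized counts. The intervals of the 3 doses lay apart, in the order of the dose. The ratio was 7.02-fold (3.99 to 13.5) at 1 ng/mL, without a call because the ND value of 6.74 missed the minimum, and the rise at 5 ng/mL was 18.8-fold with the pseudocount, the ratio lying between 11.5 and 38.0. The step from 1 to 5 ng/mL was 2.85-fold (2.34 to 3.47). Of the 3 genes that reached the ND minimum between the doses in A549 cells, only WNT5B was called, beside 3.4% of all entries. In BEAS-2B cells, 4 of the 10 genes reached it and 0 were called between the doses, beside 0.904% of entries.

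In BEAS-2B cells, WNT5B had 81, 378 and 367 counts, or 90.3 (71.7 to 112), 425 (384 to 470) and 462 (416 to 512) normalized counts. The treated libraries lay together above the control. The rises were 4.71-fold (3.69 to 6.06) and 5.12-fold (4.01 to 6.59), with a step between the doses of 1.09-fold (0.939 to 1.26). At 5 ng/mL, the ratio in A549 cells exceeded that in BEAS-2B cells by 3.90-fold (2.11 to 7.79), and at 1 ng/mL by 1.49-fold (0.795 to 3.01). The BEAS-2B level stayed above the A549 level at each dose.

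WNT5A had 27, 145 and 144 counts in BEAS-2B cells, or 30.1 (19.8 to 43.8), 163 (138 to 192) and 181 (153 to 214) normalized counts. As with WNT5B, the treated libraries overlapped each other and lay above the control, with rises of 5.42-fold (3.57 to 8.50) and 6.02-fold (3.97 to 9.45). In A549 cells, WNT5A was scarce, with 4, 30 and 16 counts, or 4.63 (1.26 to 11.9), 20.6 (13.9 to 29.4) and 14.5 (8.30 to 23.6) normalized counts. The ratios were 4.45 (1.57 to 17.4) and 3.13 (1.01 to 12.9), without a call. With the libraries thinned to the smallest total, the log2 FC of WNT5A at 5 ng/mL in A549 cells was 0.42 instead of 1.46. The A549 library at 1 ng/mL, where WNT5A was highest in this line, was also the one with the highest fibroblast marker sum given above, and the part of those markers in the WNT5A value was not tested. Between the lines, the WNT5A ratios had quotients of 0.820 (0.257 to 3.46) at 1 ng/mL and 0.521 (0.152 to 2.31) at 5 ng/mL.

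The annotated transcripts of WNT5A and WNT5B share no run longer than 35 bases, and those of WNT7A and WNT7B none longer than 30 bases. In the GENCODE annotation, WNT5A overlaps the antisense gene WNT5A-AS1, and the strand setting of the counting is not given in the sources used here, so reads of the pair cannot be told apart. WNT5B overlaps FBXL14 on the opposite strand, which had at most 5 counts in any library. DKK1 overlaps PRKG1-AS1 on the opposite strand, which had at most 3 counts. AXIN2 overlaps the unnamed coding gene model AC004805.1 on the same strand.

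WNT7B, a ligand of airway epithelium that acts largely through β-catenin, had 330, 882 and 534 counts in A549 cells. That gave 382 (342 to 426), 606 (567 to 647) and 484 (444 to 527) after normalization, highest at 1 ng/mL. The ratios were 1.58 (1.40 to 1.80) and 1.27 (1.10 to 1.46), under the FC limit at both doses. In BEAS-2B cells, WNT7B had 39, 19 and 23 counts, or 43.5 (30.9 to 59.5), 21.4 (12.9 to 33.4) and 28.97 (18.4 to 43.5) normalized counts, with ratios of 0.491 (0.268 to 0.871) and 0.666 (0.380 to 1.14). The direction in A549 cells at 5 ng/mL was not stable, since a correction for transcript GC content, chosen after seeing the data, gave a log2 FC of −0.23 instead of 0.34, and at 1 ng/mL 0.08 instead of 0.66. WNT7B had the highest transcript GC content of the 10 genes, 63.0%, and the median log2 FC in A549 cells at 5 ng/mL went from −0.27 in the bin of lowest GC content to 0.78 in the highest. Its part in the WNT7B values was not tested further. The difference between the lines was larger than either change, and the A549 level was 8.79-fold (6.29 to 12.6), 28.3-fold (18.0 to 47.3) and 16.7-fold (11.03 to 26.6) the BEAS-2B level at 0, 1 and 5 ng/mL.

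AXIN2 encodes a scaffold of the destruction complex and is switched on by β-catenin as a feedback inhibitor. In A549 cells, it had 102, 68 and 26 counts, or 118 (96.4 to 143), 46.7 (36.3 to 59.2) and 23.6 (15.4 to 34.6) normalized counts. The level was lower at each dose and the intervals lay apart. AXIN2 was 2.53-fold lower (1.84 to 3.49) at 1 ng/mL and 5.01-fold lower (3.23 to 8.03) at 5 ng/mL. The ND value of the untreated library, 6.90, was just under the minimum, and with scaling by total counts it passed and AXIN2 was called lower at both doses. In BEAS-2B cells, AXIN2 was near the detection limit, with 7, 5 and 14 counts and ratios of 0.721 (0.180 to 2.64) and 2.26 (0.853 to 6.61). A change against the control was not detectable at this depth, while the step from 1 to 5 ng/mL had a ratio of 3.13 (1.07 to 11.1). At 5 ng/mL, the AXIN2 ratio in A549 cells was 11.1-fold lower (3.75 to 36.1) than in BEAS-2B cells, and the levels of the lines had come within 1.34-fold (0.673 to 2.77) of each other, from 15.1-fold (7.09 to 38.6) without TGF-β1.

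By the counting interval alone, which needs no ND minimum, 4 genes (WNT5A, WNT5B, WNT7B and SFRP1) were higher and 3 (DKK1, DKK3 and AXIN2) were lower at 5 ng/mL in A549 cells. Of all entries with at least 10 counts in the pair of libraries, 65.9% had an interval without 1 in that comparison, 32.9% higher and 33% lower. In BEAS-2B cells, 2 (WNT5A and WNT5B) were higher and 3 (DKK1, DKK3 and SFRP1) were lower, beside 58.4% of entries, 28.5% higher and 29.9% lower. At 1 ng/mL in A549 cells, 4 were higher and 2 lower, beside 60.3% of entries, 30.9% higher and 29.4% lower. At 1 ng/mL in BEAS-2B cells, 2 were higher and 4 lower, beside 54.6% of entries, 25.9% higher and 28.6% lower. Over all entries with at least 10 counts in the pair, a difference beyond counting error was thus common in each comparison. In each, 7 of the 10 genes had at least 10 counts in the pair, too few to set their share against that of all entries.

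The other 89 genes of 9 WNT pathway lists were read in the same way. In A549 cells at 5 ng/mL, 37 of them reached the ND minimum, of which 8 were called higher and 8 lower, or 43.2% beside the 33.3% of all entries. In BEAS-2B cells, 26 reached it, with 3 higher and 2 lower, or 19.2% beside 19%. At 1 ng/mL in A549 cells, 35 reached it, with 5 higher and 7 lower, or 34.3% beside 23.5%. At 1 ng/mL in BEAS-2B cells, 28 reached it, with 2 higher and 1 lower, or 10.7% beside 14.8%. The shares in BEAS-2B cells were thus near or under those of all entries. The lists were chosen with earlier results of these data known. The larger shares in A549 cells are therefore a description, and an excess over all entries was not tested. The R-spondin axis list holds R-spondins and their LGR receptors, which protect Frizzled receptors from degradation, and RNF43 and ZNRF3, which remove these receptors. In A549 cells, 5 of its 9 genes reached the minimum and 0 were called higher. RSPO1, RNF43 and ZNRF3 reached it in the untreated library alone, so a higher call was not possible for them. RSPO1, LGR4, RNF43 and ZNRF3, from both sides of the axis, were called lower at both doses. RSPO3, another secreted R-spondin and the remaining gene, did not fall and had 1178, 3400 and 1519 counts, with ratios of 1.71 (1.60 to 1.83) at 1 ng/mL and 1.01 (0.935 to 1.09) at 5 ng/mL. The median log2 FC of the 5 R-spondin axis genes with at least 60 counts over all libraries was −2.36 at 1 ng/mL and −3.50 at 5 ng/mL. Over all 12896 such entries it was 0.05 and 0.01. In BEAS-2B cells, the same 5 genes had medians of −1.39 and −1.18, beside 0 at each dose, with at most 2 counts of RNF43 and RSPO3.

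**Figure D3:**
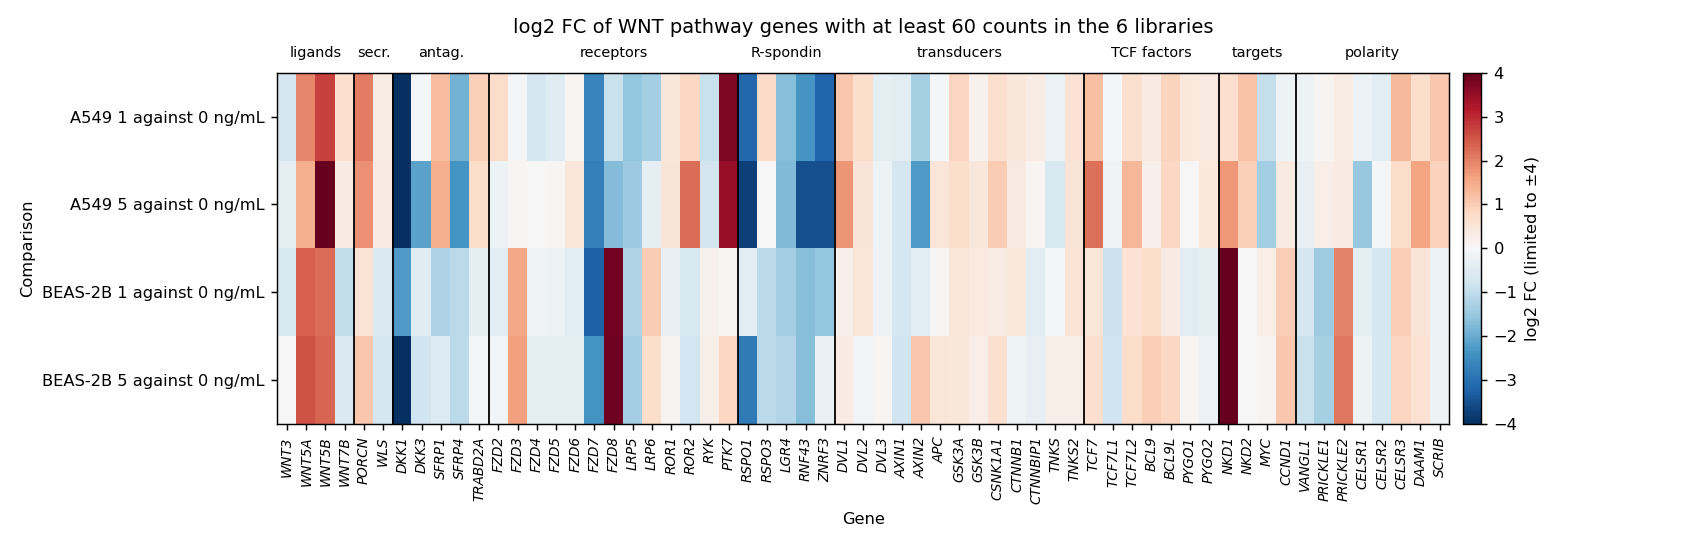
log2 FC (color, limited to ±4) of the 7 measurable genes of the text and 54 other WNT pathway genes with at least 60 counts in the 6 libraries together, by list, for each dose against the untreated library of the same line. RSPO1, LGR4, RNF43, ZNRF3, AXIN2 and DKK1 are blue in both A549 comparisons. FZD8 and NKD1 had 0 counts in untreated BEAS-2B cells, so their dark red there depends on the pseudocount.

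RSPO1, a secreted R-spondin, fell from 977 to 184 and 92 counts in A549 cells, 13.6-fold (10.9 to 17.0) at 5 ng/mL. In BEAS-2B cells, RSPO1 had 289, 214 and 35 counts and fell 7.31-fold (5.14 to 10.7) at 5 ng/mL. ZNRF3, a membrane ubiquitin ligase that removes Frizzled receptors and a β-catenin target, fell from 444 to 82 and 49 counts in A549 cells, 11.6-fold (8.60 to 15.9) at 5 ng/mL. RNF43, its paralog in function and also a target, fell from 153 to 49 and 16 counts, 12.2-fold (7.28 to 21.9). The annotation places RNF43 over SUPT4H1 on the same strand, so its reads are uncertain. SUPT4H1 had 1143, 2639 and 2135 counts in the same libraries. LGR4, a receptor for R-spondins, fell from 634 to 326 and 237 counts, 3.42-fold (2.94 to 3.98). In BEAS-2B cells, ZNRF3, RNF43 and LGR4 stayed under the ND minimum. LGR4 had 73, 27 and 28 counts there and ZNRF3 had 34, 11 and 25, both lower in the treated libraries. The ZNRF3 levels at 0 and 5 ng/mL overlapped, and RNF43 had at most 2 counts.

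Of the 12 β-catenin target genes, AXIN2 among them, 2 were called higher and 2 lower in A549 cells at 5 ng/mL, of 5 that reached the minimum, so the list did not move one way. RNF43 and ZNRF3 fell, as above, while TCF7, a DNA-binding partner of β-catenin, rose from 203 to 790 and 1196 counts, 4.61-fold (3.97 to 5.38) at 5 ng/mL. TCF7 overlaps SKP1 on the opposite strand, which had 910, 1827 and 1264 counts in the same libraries. NKD1, the other target called higher, had 46, 125 and 198 counts. LEF1, LGR5, SP5 and NOTUM had at most 5 counts in any library. In BEAS-2B cells, CCND1 was the only target called at 5 ng/mL, 2.12-fold higher (1.78 to 2.54). NKD1, CCND1, RSPO3, LRP6 and FZD8 were picked after their values were seen.

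**Figure D4:**
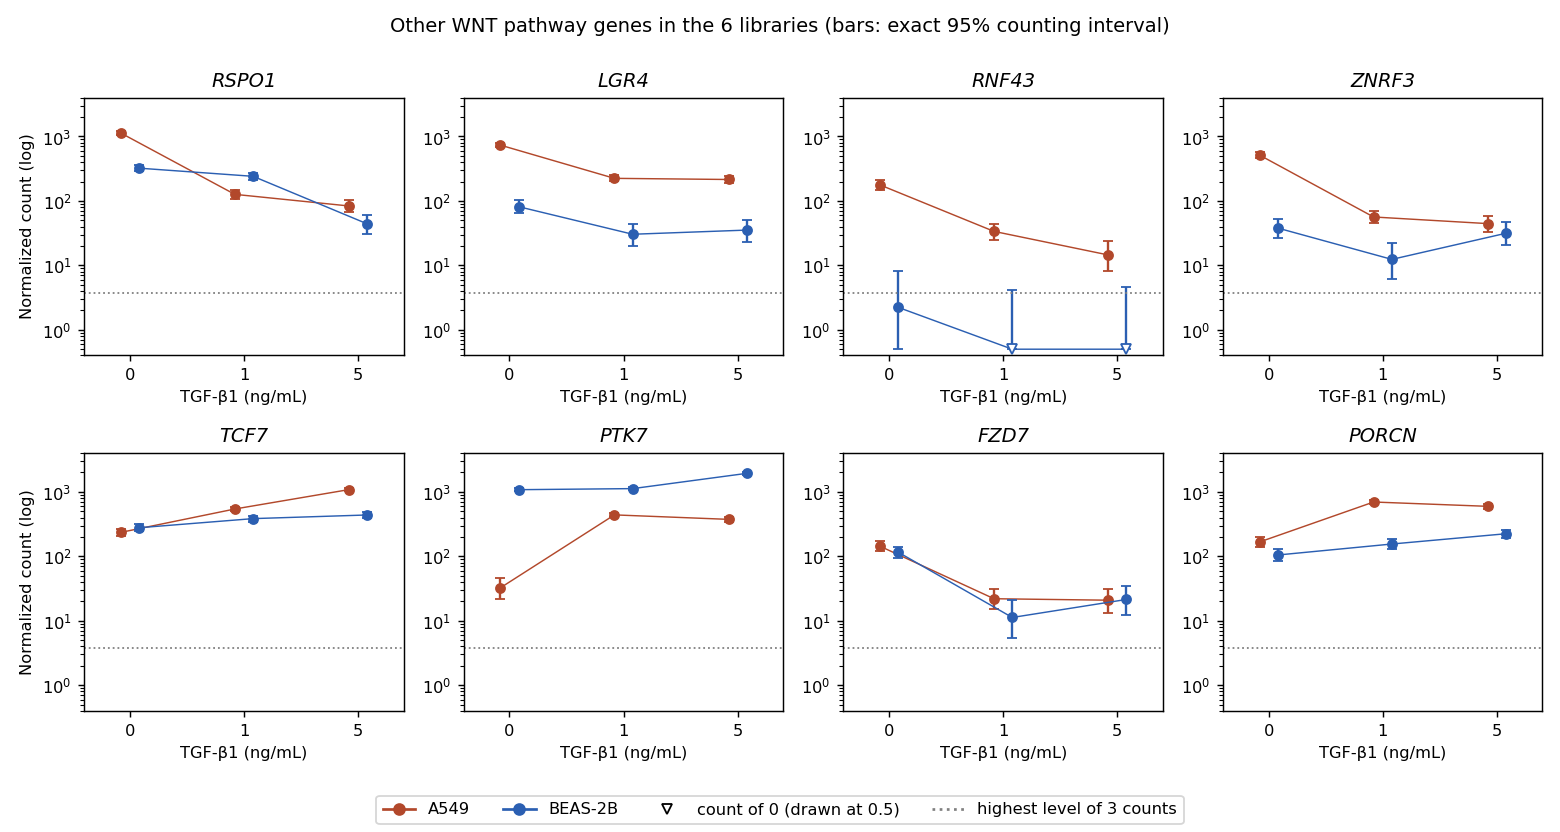
Normalized counts (log axis) of 8 other pathway genes against TGF-β1 dose (ng/mL) in A549 (red) and BEAS-2B (blue) cells, 1 library per point, with exact 95% counting intervals drawn no lower than 0.5. Open triangles mark counts of 0. In A549 cells, RSPO1, LGR4, RNF43, ZNRF3 and FZD7 lie lower and TCF7, PTK7 and PORCN higher in both treated libraries than in the control.

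Among the 16 receptors, 1 was called higher and 3 lower in A549 cells at each dose, of 8 that reached the minimum at 1 ng/mL and 9 at 5 ng/mL. PTK7, FZD7 and LRP5 were called at both doses, LRP6 at 1 ng/mL alone and FZD8 at 5 ng/mL alone. PTK7, a co-receptor of the planar polarity branch, rose from 28 to 640 and 413 counts, 11.6-fold (7.87 to 17.6) at 5 ng/mL. FZD7 fell from 124 to 32 and 23 counts, 6.88-fold (4.39 to 11.3), and LRP5, a co-receptor of the canonical branch, fell 2.75-fold (2.07 to 3.68). In BEAS-2B cells, FZD7 had 104, 10 and 17 counts, also lower, but missed the ND minimum. LRP6 had 56, 114 and 82 counts there and was called higher at 1 ng/mL, opposite to its lower call in A549 cells at that dose. The BEAS-2B call just passed both limits, with ND values of 5.99 untreated and 7.01 at 1 ng/mL. At 5 ng/mL, LRP6 was not called in that line. PORCN, the enzyme that attaches the lipid WNT ligands need for secretion, rose from 144 to 1014 and 658 counts in A549 cells, 3.58-fold (2.98 to 4.32) at 5 ng/mL, and 2.14-fold (1.66 to 2.78) in BEAS-2B cells. DVL1, which relays the signal inside the cell, rose 3.41-fold (2.87 to 4.08) in A549 cells at 5 ng/mL. The correction for transcript GC content was read for the 10 genes only. Rises of TCF7, PTK7, PORCN and DVL1 in A549 cells were not checked in that way. None of the 13 genes of the destruction complex and its transducers was called in BEAS-2B cells at either dose.

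Of the 9 planar polarity genes, 1 was called higher and 1 lower in BEAS-2B cells at both doses, of 5 that reached the minimum. PRICKLE2 rose from 62 to 248 and 241 counts, 4.39-fold (3.31 to 5.90) at 5 ng/mL. Antisense genes over PRICKLE2 had 7, 22 and 38 counts (PRICKLE2-AS1) and 5, 27 and 35 counts (PRICKLE2-AS3) in the same libraries. PRICKLE1 fell from 392 to 144 and 139 counts, 2.50-fold (2.05 to 3.05), and overlaps PPHLN1 on the opposite strand, which had 251, 130 and 157 counts. Both PRICKLE proteins are cytoplasmic polarity factors, and their genes moved in opposite directions in BEAS-2B cells. A link to the WNT5A and WNT5B values was not tested.

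The 3 genes with the widest ND range among those that reached the minimum were DKK1 (9.18), WNT5A (5.02) and WNT5B (4.85). Over the 6 libraries and 8159 candidate genes, the ND pattern nearest to DKK1 was that of B4GALT4 (Pearson r = 0.997), followed by SEC11C (0.996) and CCPG1 (0.994). The nearest to WNT5A were SPOCD1 (0.999), MEDAG (0.996) and SMAD1 (0.994). The nearest to WNT5B were LUC7L (0.997), MZT2A (0.996) and PSMC3 (0.994), whose levels spanned a narrower range. These points share libraries and line differences, and values this high arise readily when many genes are ranked over 6 points.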

How the data were processed

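Each of the 6 conditions had 1 library, and groups were taken from the labels. The deposited values are raw read counts, 1 whole number for each gene symbol entry. The submitters' processing notes name Bowtie2, bedtools and hg19 without versions, and the paper names ExDEGA for the analysis. Filters and the strand setting of the counting are not given in the sources used here. The libraries came from a QuantSeq 3′-mRNA kit, so counts follow 3′ ends and not transcript length.

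Here, TMM factors over the 6 libraries were computed with edgeR 4.0.16 in R 4.3.3. The FC carried a pseudocount of 1, and ratios printed with intervals carried none. Intervals are exact (Clopper-Pearson for ratios, Poisson for levels, conditional for quotients of ratios) at 95%. The FC limit of 2 and the ND minimum of 7 follow the study. TMM scaling and the reading that at least 1 library of the pair must reach the minimum were chosen here. The calls are therefore not those of the paper, which reports fewer genes for each line. Other steps ran in Python 3.11.15 (numpy 2.4.6, scipy 1.17.1, pandas 2.3.3, figures with matplotlib 3.10.9) and were tested on simulated data. Alternatives were 12 planned ones, with DESeq2 1.42.0 size factors among them, and 2 added after seeing the data.

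The 10 genes and the pathway lists were chosen with earlier results of these data known. Named beside them were the 12 pathway genes called in the same direction at both doses in at least 1 line, treatment check genes, cell type markers and the genes with the nearest pattern. Gene overlaps came from GENCODE 29 and promoters from RefSeq, both on GRCh38, while the counts rest on hg19, so no gene coordinates are given for the counts. A further treatment check gene is not reported here.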

Additional observations from a re-analysis of the deposited data

Results flagged for a closer look

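SFRP1 was higher in both treated A549 libraries and lower in both treated BEAS-2B libraries, with log2 FC of 1.24 and 1.46 at 1 and 5 ng/mL in A549 cells and −1.23 and −0.55 in BEAS-2B cells. WNT7B had 0.66 and 0.34 in A549 cells and −0.99 and −0.57 in BEAS-2B cells, and its value in A549 cells at 5 ng/mL turned to −0.23 with the GC trend removed. PRICKLE1 had 0.10 and 0.28 in A549 cells and −1.43 and −1.32 in BEAS-2B cells. These genes were flagged by the sign of the log2 FC. The PRICKLE1 levels in A549 cells overlapped, at 82.3 (64.2 to 104), 87.9 (73.4 to 105) and 99.8 (82.0 to 120) normalized counts. The interval of the WNT7B ratio in BEAS-2B cells at 5 ng/mL, 0.380 to 1.14, held 1. Quotients between the lines, given above for SFRP1, cover counting error only and were not computed for PRICKLE1. With 1 library per condition, the difference between the lines was not tested.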

How the results depend on the processing

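No paired analysis was possible because each condition had 1 library and the labels give no replicate numbers. The number of the 10 genes called stayed within 1.5 times in 48 of 55 recalculations. With the ND minimum required in both libraries, it was 1 at each dose in A549 cells (SFRP1) and 0 at each dose in BEAS-2B cells, since the other calls rest on a library under the minimum. With an ND minimum of 5, it was 4 and 5 at 1 and 5 ng/mL in A549 cells, and with an FC limit of 3 it was 1 at 1 ng/mL in A549 cells. Of 396 log2 FC values of single genes over the alternatives, 390 stayed within the counting interval of the ratio. The sign changed for 1 of 41 values, WNT7B in A549 cells at 5 ng/mL, with the GC trend removed. Scaling by total counts moved the median log2 FC of all entries at 5 ng/mL to −0.18 (A549) and −0.12 (BEAS-2B). It also moved the share of higher calls among all calls from 48.4% to 33.8% in the first line and from 38.7% to 26.9% in the second. Genes under about 10 counts, such as AXIN2 in BEAS-2B cells, are limited by depth.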
